A study of Mus musculus with 8 samples.

Results

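The 47 genes described here encode enzymes that write or erase histone and DNA modifications, together with the core subunits of those enzymes. They were taken by a rule on their names from the 20701 gene symbols of an RNA-Seq experiment on mouse embryonic heart, in 5 classes: 15 histone methylases, 11 histone demethylases, 6 histone acetylases, 9 histone deacetylases and 6 enzymes of DNA methylation. All 47 were found and all 47 passed the filter on low counts, which 13769 genes passed. Tissue of the outflow tract and right ventricle (OFT/RV) was dissected from single C57BL/6 embryos at E10.5, when the outflow tract is being lengthened by second heart field progenitors. The 4 CTRL embryos had the genotype wild type and the 4 Isl1_hypo embryos the genotype Isl1 hypomorph, homozygous for a floxed-neo form of Isl1, which encodes a LIM-homeodomain transcription factor; this form lowers expression without removing it, and the embryos survive until birth. No Cre or other driver was used, so the reduction was not limited to a cell type, and each library came from 1 embryo. Embryo sex, read from Y-linked counts given further on, was uneven between the genotypes and entered no fit. The study asked how Isl1 controls the chromatin state of cardiac progenitors, and the comparison of the genotypes is applied here to the genes that modify chromatin.

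Histone methylases add methyl groups to lysines of histone tails, and the position decides how the mark is read: methylation of H3K4 marks promoters and enhancers, H3K36 methylation marks transcribed gene bodies, and H3K27 methylation by Polycomb repressive complex 2 marks silenced genes. Demethylases remove these groups, acetylases open chromatin by acetylating lysines, and deacetylases reverse that step. Dnmt1 copies DNA methylation at CpG sites after replication, Dnmt3a and Dnmt3b set it anew, and the Tet dioxygenases start its removal. In the heart, loss of Kmt2d, Smyd1, Ezh2, Hdac2 or Hdac5 together with Hdac9 is known to disturb development, and Smyd1 is restricted to muscle.

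The starts of many of these genes, though not of all, were rich in the letters CG, which did not enter their choice. RefSeq promoter windows (GRCm38.p6) were found for 36 of the 47 genes, 52 windows in all, since a gene can have several starts. In the 250 bases before the start, the letters CG, which read the same on both strands, occurred at a median of 20.5 places in the members' windows and of 6 places in all 32851 windows of the table. At least 10 CG were held by 40 of the 52 windows (76.9%), and by 12417 of all windows (37.8%). Setd5, Smyd1, Hdac9 and Kat2b were among the genes with fewer, and the window of Setd5 held 0. The 4 windows below are shown as examples from genes on which the results turn. Smyd1, the gene with the highest level, had 2 CG (chr6:71262282-71262531, minus strand). Kmt2a, a long H3K4 methylase, had 29 CG (chr9:44881290-44881539, minus strand). Tet2, with the smallest p-value of the 47 genes in edgeR with all 8 libraries, had 51 CG (chr3:133544391-133544640, minus strand). Suz12, which was higher in Isl1_hypo, had 37 CG (chr11:79992856-79993105, plus strand). Each is written 5′ to 3′ with CG in capitals.
Smyd1: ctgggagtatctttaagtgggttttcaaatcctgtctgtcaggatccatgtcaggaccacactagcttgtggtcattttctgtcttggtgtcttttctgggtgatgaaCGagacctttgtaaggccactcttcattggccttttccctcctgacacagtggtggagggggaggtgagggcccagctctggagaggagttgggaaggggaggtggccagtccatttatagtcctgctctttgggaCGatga
Kmt2a: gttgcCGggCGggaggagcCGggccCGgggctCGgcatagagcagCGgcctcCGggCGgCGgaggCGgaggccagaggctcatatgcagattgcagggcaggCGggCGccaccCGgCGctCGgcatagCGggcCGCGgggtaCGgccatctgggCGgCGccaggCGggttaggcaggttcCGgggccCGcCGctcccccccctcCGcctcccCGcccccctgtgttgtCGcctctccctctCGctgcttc
Tet2: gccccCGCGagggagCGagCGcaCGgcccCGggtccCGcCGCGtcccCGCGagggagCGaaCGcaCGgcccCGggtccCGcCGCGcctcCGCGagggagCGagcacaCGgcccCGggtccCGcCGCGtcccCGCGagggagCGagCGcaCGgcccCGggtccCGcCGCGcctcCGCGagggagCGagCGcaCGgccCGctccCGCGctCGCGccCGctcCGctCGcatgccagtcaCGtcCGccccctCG
Suz12: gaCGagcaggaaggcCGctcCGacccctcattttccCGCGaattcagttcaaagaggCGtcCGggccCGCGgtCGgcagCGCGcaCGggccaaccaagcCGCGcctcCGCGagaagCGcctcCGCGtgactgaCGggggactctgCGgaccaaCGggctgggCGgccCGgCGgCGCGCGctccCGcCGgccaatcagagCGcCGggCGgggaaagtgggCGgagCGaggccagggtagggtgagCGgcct
The count of CG is a description of the letters in these windows, and methylation was not measured.

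Total counts ranged from 29748458 to 46678973 in CTRL and from 18422245 to 33050298 in Isl1_hypo, and no member had fewer than 104 counts in any library. Isl1 itself was present at 29.6, 61.5, 46.2 and 51.3 CPM, the counts scaled to library size, in the 4 CTRL libraries, in the order of their numbers, and its Isl1_hypo values were 12.7, 6.86, 7.71 and 11.4 CPM (log2 fold change −2.29 ± 0.26 SE, adjusted p = 0.0077 by the edgeR quasi-likelihood test). Isl1_hypo replicate 3 stood apart from the rest: it lay at 72.0 on the first principal component against −17.7 to 3.97 for the other 7 libraries. Its levels also depended on transcript length and GC content more than those of the other Isl1_hypo libraries, with a slope on log2 transcript length of −0.108 against −0.028 to 0.031, and a slope per 10 percentage points of GC of −0.296 against −0.033 to 0.055. CTRL replicate 1 had the highest slope on length (0.119). Markers of the dissected tissue were abundant in every library: 12 cardiomyocyte genes summed to between 46685 and 54263 CPM in CTRL and between 46078 and 55201 CPM in Isl1_hypo. Of these genes 7 had a lower fitted level, 3 of them at an unadjusted p under 0.05 in edgeR: Ttn (log2 fold change −0.90 ± 0.23) and Myh7 (−0.49 ± 0.12), both without overlap, and Myh6 (−0.31 ± 0.14). Blood moved with genotype: 10 of 10 erythroid markers were higher in Isl1_hypo, their sum was 2082 to 11616 CPM in CTRL and 11552 to 23490.3 CPM in Isl1_hypo, and globin took 0.212% to 1.19% of counts in CTRL and 1.18% to 2.44% in Isl1_hypo. In such tissue, fewer cells of a type and less RNA per cell cannot be told apart. None of the erythroid markers was at 0 in any library. Isl1_hypo replicate 1, the shallowest library, differed in another way, with 282, 708 and 111 counts of the epithelial genes Cdh1, Cldn6 and Esrp1, against at most 9 counts of any of them in the other 7 libraries. For many members the value without Isl1_hypo replicate 3 is given beside the value with all 8 libraries, and a plot shows both for all 47.

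As a group, the enzymes were slightly lower in Isl1_hypo. Of the 47 genes, 38 had a lower fitted level and 9 a higher one, and the median log2 fold change was −0.23, against 0.01 over all genes tested, of which 49.1% were below 0. With each library's trend on transcript length removed the median was −0.11, and with the globin level as a covariate it was −0.12. In each of these fits 31 of the 47 were lower. Relative to the CTRL mean, the median over the 47 genes was −0.22, −0.12, −0.30 and −0.13 (log2) in Isl1_hypo replicates 1 to 4. The same median lay between −0.05 and 0.05 in the CTRL libraries, so that every Isl1_hypo library was below every CTRL library. No member passed an adjusted p of 0.05 in the edgeR quasi-likelihood test, a limit that 0.269% of all genes passed, while DESeq2 and limma-voom each passed 1 member (Tet2 and Smyd1), beside 1.88% of the 17052 genes tested by DESeq2 and 0.973% of those tested by limma-voom. At an unadjusted p under 0.05, 8 members were lower (Kmt2a, Kmt2d, Kmt2e, Setd2, Setd5, Hdac5, Dnmt1 and Tet2), a call that 6.17% of all genes received, and 1 was higher (Suz12), a call received by 5.69%. The groups did not overlap in 5 members (8.5% of all genes). In these 5 every Isl1_hypo library was below every CTRL library, which held for 4.44% of all genes, and in 0 members was every Isl1_hypo library above, which held for 4.06%. Without Isl1_hypo replicate 3, 37 members were lower with a median of −0.17 (49.3% of all genes were lower), 10 were lower and 0 higher at an unadjusted p under 0.05 (5.92% and 4.97% of all genes), 8 lay below CTRL without overlap and 0 above (5.69% and 5.53% of all genes), and 1 passed the adjusted limit (0.345% of all genes). Single libraries weighed on many of the values: in 38 of the 47 members the log2 fold change moved by over 1.5 times or turned when some 1 of the 8 libraries was left out, and in 7 of these the sign turned. The 9 that did not move so far were Kmt2a, Kmt2e, Setd1b, Setd2, Kat6b, Hdac5, Hdac7, Dnmt1 and Tet2.

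**Figure D1:**
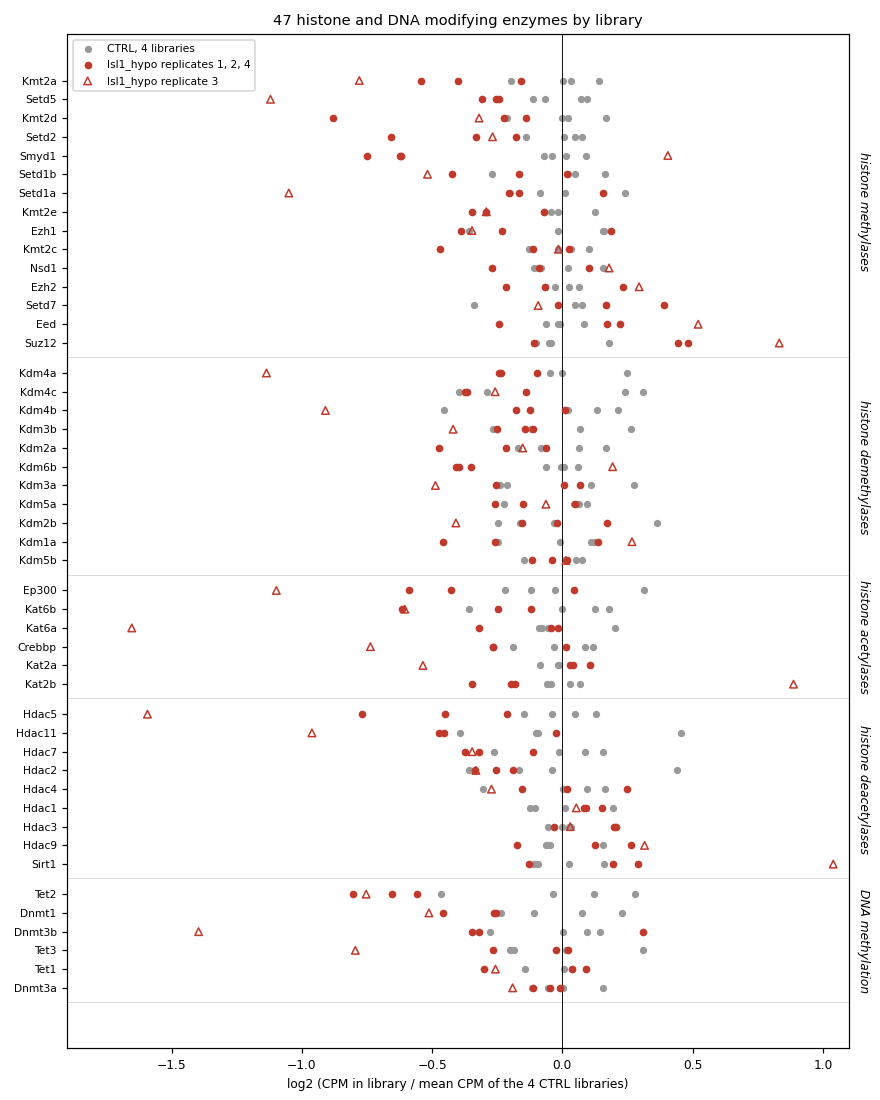
Each row is 1 of the 47 enzymes and each symbol 1 library, placed by the log2 ratio of its CPM to the mean CPM of the 4 CTRL libraries. Grey circles are CTRL, red circles Isl1_hypo replicates 1, 2 and 4, and open triangles Isl1_hypo replicate 3, which was the lowest library for 19 genes and the highest for 10.

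Isl1_hypo replicate 3 shaped both ends of this distribution. It was the lowest of the 8 libraries for 19 of the 47 members (40.4%, against 28.4% of all genes) and the highest for 10 (21.3%, against 26.2%). Isl1_hypo replicate 1 was lowest for 12 members (25.5%, against 9.59% of all genes), and CTRL replicate 1 was highest for 14 (29.8%, against 17.2% of all genes).

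Levels per transcript length set the enzymes widely apart. Smyd1, a muscle methylase of the SET and MYND domain family, stood at 527 ± 26.3 CPM per kilobase in CTRL (SD, n = 4), above Hdac3 at 72.1 ± 1.97. Hdac2 (51.3 ± 12.8), Dnmt1 (34.2 ± 4.85), Dnmt3a (29.3 ± 2.44) and Hdac5 (28.7 ± 2.34) came next, and from Dnmt1 to Hdac5 neighbours in this order differed by less than the larger of their SDs. The lowest levels were those of Setd1b (1.68 ± 0.205), Kat6b (1.69 ± 0.265), Kat2b (2.22 ± 0.093) and Tet2 (2.26 ± 0.469), and neighbours within this group, other than Kat6b and Kat2b, also differed by less than the larger SD. In Isl1_hypo the first 3 places were held by the same genes, with Smyd1 at 424 ± 183, Hdac3 at 77.5 ± 6.46 and Hdac2 at 42.4 ± 2.06 CPM per kilobase.

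**Figure D2:**
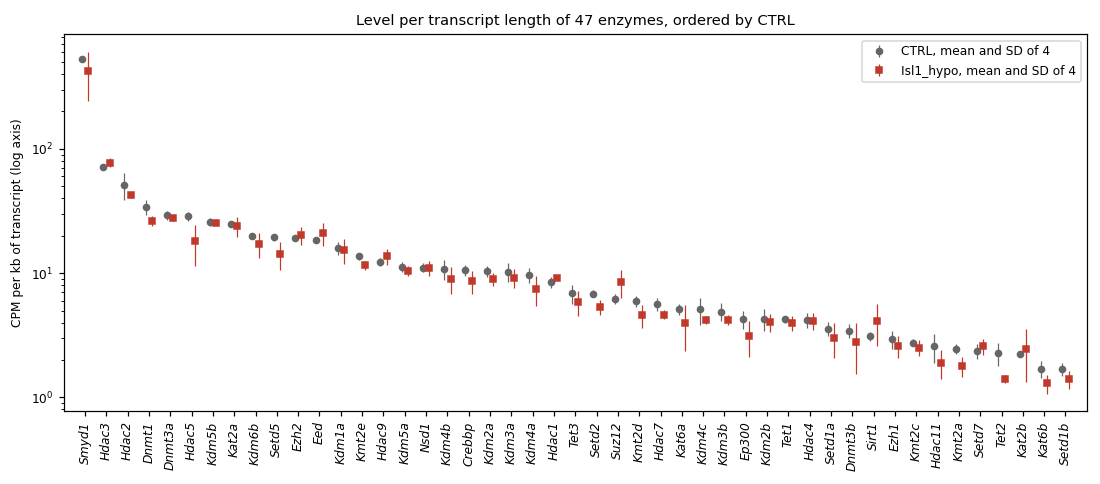
Points are the mean level of each enzyme in CPM per kilobase of transcript (log axis) with the SD over 4 embryos as bars, grey circles for CTRL and red squares for Isl1_hypo, ordered by the CTRL mean. Levels ran from 527 for Smyd1 to 1.68 for Setd1b in CTRL, and the Isl1_hypo bar of Smyd1 is wide because 1 library was high.

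Among the histone methylases, 11 of 15 were lower in Isl1_hypo (median log2 fold change −0.25), and without replicate 3 it was 12 of 15 (−0.17). The 7 H3K4 methylases included 6 with lower levels (median −0.26). Kmt2a, the MLL1 methylase that maintains expression of Hox genes, had 44.4, 41.3, 40.4 and 35.2 CPM in CTRL and 27.7, 30.5, 23.5 and 36.2 CPM in Isl1_hypo. The groups overlapped through replicate 4 of each genotype, and the log2 fold change was −0.45 ± 0.15 (SE, unadjusted p = 0.0114, adjusted p = 0.289, edgeR). It was −0.23 ± 0.13 with the trend on transcript length removed (unadjusted p = 0.0984) and −0.18 ± 0.22 with a globin covariate (unadjusted p = 0.44). Kmt2d, which places H3K4 monomethylation at enhancers, had 132, 117, 101 and 119 CPM in CTRL and 63.7, 100.3, 93.9 and 106 CPM in Isl1_hypo. Only Isl1_hypo replicate 1 lay far below the CTRL range, and the log2 fold change was −0.36 ± 0.15 (unadjusted p = 0.0367, adjusted p = 0.382, edgeR). Without that library it was −0.23 ± 0.12 (unadjusted p = 0.0832), and with the trend on transcript length or on GC content removed it was −0.11 ± 0.12 or −0.22 ± 0.18 (unadjusted p = 0.394 and 0.234). Its paralogue Kmt2c differed by −0.13 ± 0.13, by −0.03 ± 0.13 without Isl1_hypo replicate 1 and by 0.10 with the length trend removed, and the Set1 methylases Setd1a and Setd1b by −0.25 ± 0.23 and −0.26 ± 0.17, none of them past an unadjusted p of 0.05. Setd1a was at 10.2 CPM in Isl1_hypo replicate 3, against 18.4 to 23.6 CPM in the other Isl1_hypo libraries, and differed by −0.06 ± 0.16 without it. Setd7, which monomethylates H3K4 and other proteins, was the H3K4 methylase with a higher fitted level (0.12 ± 0.17).

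The value of Smyd1 depended on 1 library. Its CPM were 1782, 1881, 1716 and 1679.6 in CTRL and 1150.1, 1050.5, 2336 and 1147 in Isl1_hypo. Replicates 1, 2 and 4 of Isl1_hypo were thus below every CTRL library, and replicate 3 was above every one. With all 8 libraries the log2 fold change was −0.31 ± 0.22 (adjusted p = 0.599, edgeR). Without replicate 3 it was −0.66 ± 0.09 (adjusted p = 0.00959), the only member past this limit in that fit, where 0.173% of all genes were called lower. limma-voom with sample quality weights, which keeps all 8 libraries and gives less weight to variable ones, put Smyd1 at −0.62 ± 0.12 (adjusted p = 0.0254). DESeq2 gave an adjusted p of 0.593. The 12 cardiomyocyte markers were lower in 7 cases and higher in 5, with sums that overlapped between the groups. In replicate 3, where Smyd1 was highest, the sum of the 12 was 46078 CPM, the lowest of the 8 libraries. The part of the cardiomyocyte share in the value of Smyd1 was not tested. Smyd1 was looked at in this detail after its values were seen.

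The remaining methylases were those of H3K36 and H3K27 and a pair of SET domain proteins whose own activity is not settled. Setd2, the trimethylase of H3K36 that travels with RNA polymerase II, had 58.7, 59.8, 51.5 and 57.0 CPM in CTRL and 36.01, 45.2, 47.1 and 50.2 CPM in Isl1_hypo. The groups did not overlap, and the log2 fold change was −0.35 ± 0.13 (adjusted p = 0.314, edgeR) and −0.37 ± 0.13 without replicate 3. Nsd1, a dimethylase of the same residue, showed −0.01 ± 0.12, and −0.08 ± 0.11 without replicate 3. Setd5, a SET domain gene linked to neurodevelopmental disorders, had 133, 131, 119 and 116 CPM in CTRL and 105, 105, 57.4 and 101 CPM in Isl1_hypo. Every Isl1_hypo library was below the CTRL libraries, with replicate 3 far lower than the rest, and the log2 fold change was −0.44 ± 0.17 (adjusted p = 0.341) and −0.27 ± 0.09 without that library. Kmt2e, a SET domain reader of methylated H3K4, had 97.7, 94.3, 96.1 and 108 CPM in CTRL and 77.8, 80.9, 80.9 and 94.3 CPM in Isl1_hypo (log2 fold change −0.25 ± 0.10, adjusted p = 0.365). Its groups met at CTRL replicate 2 and Isl1_hypo replicate 4. With the trend on transcript length removed, Setd2 and Kmt2e stood at −0.22 ± 0.13 and −0.13 ± 0.10 (unadjusted p = 0.113 and 0.21, edgeR).

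Of the 4 genes of Polycomb repressive complex 2, 3 had a higher fitted level (median 0.14), and 2 of 4 did without replicate 3 (median 0.03). Suz12, the subunit that holds the complex together, had 30.6, 26.3, 26.1 and 25.3 CPM in CTRL and 25.1, 36.8, 48.2 and 37.8 CPM in Isl1_hypo. Replicates 2, 3 and 4 were above every CTRL library and replicate 1 was below them, for a log2 fold change of 0.45 ± 0.18 (unadjusted p = 0.0278, adjusted p = 0.346, edgeR). Without replicate 3, Suz12 showed 0.30 ± 0.16 and its unadjusted p was 0.0864. Eed, which reads the H3K27 methyl mark, differed by 0.19 ± 0.15 and the catalytic Ezh2 by 0.08 ± 0.13, and without replicate 3 by 0.07 ± 0.13 and −0.00 ± 0.12. Without Isl1_hypo replicate 1, Suz12, Eed and Ezh2 differed by 0.60 ± 0.15, 0.31 ± 0.14 and 0.12 ± 0.15. The alternative catalytic subunit Ezh1 differed by −0.18 ± 0.19, and by −0.12 ± 0.20 without replicate 3. Partner subunits of the complex outside the 47 genes lay on both sides. Jarid2 was at −0.32 ± 0.12 (unadjusted p = 0.026, edgeR) and Rbbp7 at 0.30 ± 0.12 (unadjusted p = 0.0341), while Phf1 (−0.56 ± 0.26), Rbbp4 (−0.19 ± 0.15), Mtf2 (0.21 ± 0.10), Aebp2 (−0.08 ± 0.22) and Phf19 (−0.06 ± 0.32) did not pass that limit. Without replicate 3 these 7 were at −0.32, 0.21, −0.36, −0.06, 0.15, −0.38 and −0.20, in the same order, with Jarid2 and Aebp2 past that limit. Of the summed level per kilobase of Ezh1 and Ezh2, Ezh2 held 86.7% ± 2.16 in CTRL and 88.5% ± 1.73 in Isl1_hypo (SD, n = 4), a difference within the spread.

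**Figure D3:**
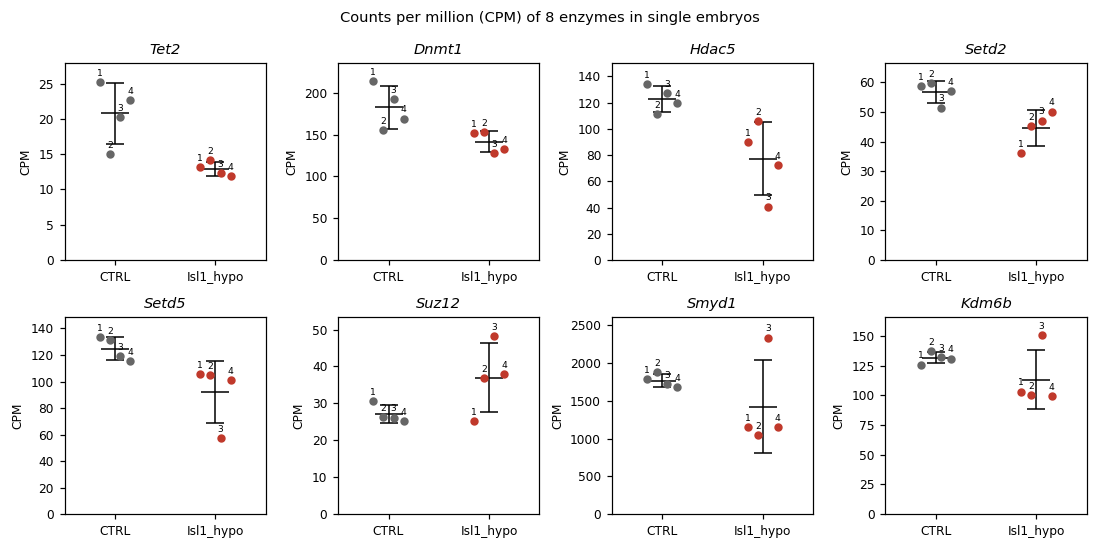
CPM of 8 enzymes in each embryo, grey for CTRL and red for Isl1_hypo, with the replicate number beside each point and the mean and SD (n = 4) in black. Tet2, Dnmt1, Hdac5, Setd2 and Setd5 show no overlap between groups, while Smyd1 and Kdm6b have 3 Isl1_hypo libraries below the CTRL range and replicate 3 above it.

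All 11 histone demethylases had a lower fitted level in Isl1_hypo, yet 0 of them reached an unadjusted p of 0.05 in edgeR, as 11.9% of all genes did, and 1 (Kdm6b) did in limma-voom, as did 13.7% of all genes. The direction depended on the fit, since 9 of 11 were lower with the length trend removed (Kdm5a and Kdm5b at 0.06 each) and 8 of 11 with a globin covariate. Their median log2 fold change was −0.22 and their range −0.38 to −0.03, and without replicate 3 the median was −0.17 with 10 of 11 lower. Kdm4a, which removes methyl groups from H3K9 and H3K36, had 37.8, 43.1, 44.5 and 52.9 CPM in CTRL and 37.9, 41.6, 20.3 and 37.7 CPM in Isl1_hypo. Only replicate 3 was well below the CTRL range, and the log2 fold change of −0.38 ± 0.21 (adjusted p = 0.499, edgeR) became −0.19 ± 0.13 without it. Kdm4b and Kdm4c, paralogues of Kdm4a, stood at −0.26 ± 0.20 and −0.28 ± 0.18. Without CTRL replicate 2, Kdm4c stood at −0.16 ± 0.19. Kdm4b was at 26.4 CPM in replicate 3, against 43.9 to 50.03 CPM in the other Isl1_hypo libraries, and at −0.09 ± 0.15 without it. Kdm2a, which demethylates H3K36 and binds CpG islands, had 78.9, 84.7, 71.3 and 67.0 CPM in CTRL and 54.4, 72.3, 67.9 and 64.9 CPM in Isl1_hypo (−0.22 ± 0.12, adjusted p = 0.507). The groups overlapped, and Kdm2b, its paralogue in a variant Polycomb complex, showed −0.09 ± 0.18, and 0.00 ± 0.17 without replicate 3.

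Kdm6b, which removes H3K27 methylation, showed the same arrangement of libraries as Smyd1. It had 126, 137, 132 and 131 CPM in CTRL and 103, 100.1, 151 and 99.1 CPM in Isl1_hypo. Again replicates 1, 2 and 4 lay close together below every CTRL library, with replicate 3 above them all. The log2 fold change was −0.22 ± 0.14 with all libraries (adjusted p = 0.556, edgeR) and −0.39 ± 0.08 without replicate 3 (adjusted p = 0.0763). With all libraries it was −0.10 ± 0.17 when the length trend was removed and −0.03 ± 0.20 when the GC trend was removed. The H3K9 demethylases Kdm3a and Kdm3b differed by −0.15 ± 0.16 and −0.23 ± 0.14, and without replicate 3 by −0.05 ± 0.15 and −0.17 ± 0.15. Among the H3K4 demethylases, Kdm1a (LSD1) was at −0.05 ± 0.17 (−0.17 ± 0.16 without replicate 3), Kdm5a at −0.10 ± 0.11 and Kdm5b at −0.03 ± 0.09.

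**Figure D4:**
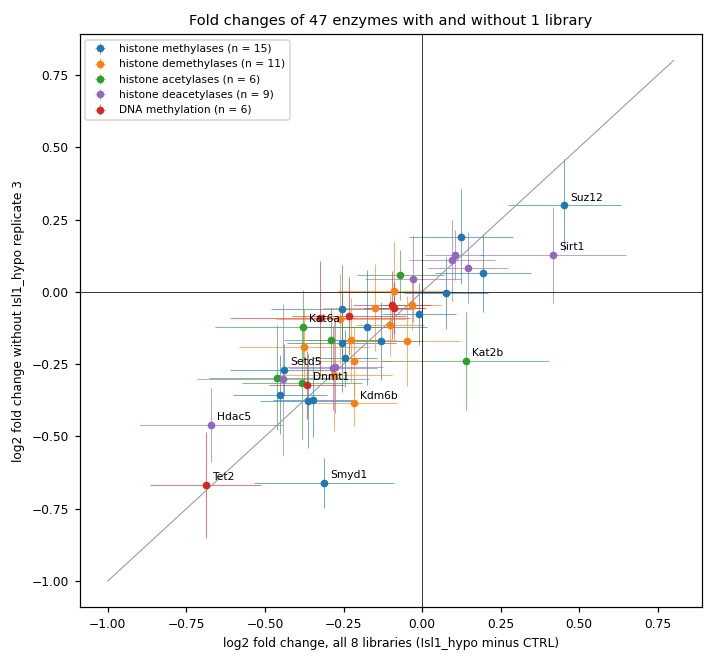
Log2 fold change (Isl1_hypo minus CTRL) of each enzyme with all 8 libraries (horizontal) and without Isl1_hypo replicate 3 (vertical), with SE as bars, colours for the 5 classes and equality as the grey line. Smyd1, Kdm6b and Kat2b lie below the line, Hdac5, Setd5 and Kat6a above it, and Tet2 on it (−0.69 and −0.67).

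Of the 6 histone acetylases, 5 were lower, with a median log2 fold change of −0.34, and −0.20 without replicate 3. Ep300, the p300 coactivator recruited to active enhancers, had 31.9, 36.5, 34.2 and 46.2 CPM in CTRL and 27.6, 24.8, 17.4 and 38.4 CPM in Isl1_hypo. Replicates 1, 2 and 3 were below every CTRL library and replicate 4 was not, and the log2 fold change was −0.46 ± 0.22 (unadjusted p = 0.0568, adjusted p = 0.438, edgeR), and −0.30 ± 0.18 without replicate 3. Its close relative Crebbp had 77.04, 83.7, 69.1 and 85.6 CPM in CTRL and 65.5, 65.6, 47.3 and 79.7 CPM in Isl1_hypo, again with replicate 4 inside the CTRL range (−0.29 ± 0.15, adjusted p = 0.483, and −0.17 ± 0.11 without replicate 3). Kat6b, an H3K23 acetylase of the MYST family, had 13.98, 13.5, 12.3 and 9.64 CPM in CTRL and 11.4, 10.4, 8.12 and 8.06 CPM in Isl1_hypo (−0.38 ± 0.19, adjusted p = 0.467). Its groups overlapped through CTRL replicate 4. Kat6a, its paralogue, also differed by −0.38 ± 0.28, but by −0.12 ± 0.13 without replicate 3, where it stood at 14.9 CPM against 37.4 to 46.2 CPM in the other Isl1_hypo libraries. Kat2a (GCN5), which acetylates H3K9, showed −0.07 ± 0.14, and 0.06 ± 0.09 without replicate 3. Kat2b (PCAF) showed 0.14 ± 0.27 with replicate 3, where it was at 16.8 CPM, and −0.24 ± 0.17 without it, the other 3 libraries lying between 7.11 and 7.99 CPM and CTRL between 8.70 and 9.50 CPM.

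In the edgeR fit of all 8 libraries the histone deacetylases were the class with the smallest difference, 5 of 9 being lower with a median of −0.03. Without replicate 3, 4 of 9 were lower with a median of 0.04. In some settings given further on, DNA methylation had the median nearer to 0. Hdac5 differed the most of the 9 deacetylases. This class IIa enzyme, which shuttles out of the nucleus and restrains the growth program driven by Mef2, lies on chromosome 11 (mm9, 102055746 to 102091480). It had 134, 111, 127 and 119 CPM in CTRL and 89.9, 106, 40.7 and 72.0 CPM in Isl1_hypo. The groups did not overlap, and the mean went from 122.9 ± 10.03 to 77.2 ± 28.0 CPM (SD, n = 4), or 62.8% of CTRL. The log2 fold change was −0.67 ± 0.23 (unadjusted p = 0.013, adjusted p = 0.298, edgeR), and −0.46 ± 0.13 without replicate 3 (adjusted p = 0.197). The exact permutation p was 0.0286, the smallest that 4 against 4 libraries allow, as for Tet2, Dnmt1, Setd2 and Setd5.

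The other class IIa enzymes had fold changes nearer to 0. Hdac7, known from the endothelium, had 27.1, 25.9, 20.3 and 24.1 CPM in CTRL and 19.5, 18.8, 19.2 and 22.5 CPM in Isl1_hypo (−0.28 ± 0.14, adjusted p = 0.459, edgeR). The groups overlapped through Isl1_hypo replicate 4 and CTRL replicate 3, and the part of the endothelial cells in this was not tested. Of 7 endothelial markers 5 were lower, Pecam1 and Cdh5 at an unadjusted p under 0.05, and their sum was 709 to 872 CPM in CTRL and 539 to 746 CPM in Isl1_hypo. Hdac4 showed −0.03 ± 0.15 and Hdac9 0.14 ± 0.13, and without replicate 3 they showed 0.04 ± 0.15 and 0.08 ± 0.12. Hdac9 is the member whose transcripts differed most: the longer of its transcripts gave 0.01 and the shorter 0.15. Of the summed level per kilobase of the 4 class IIa genes, Hdac5 held 56.4% ± 3.55 in CTRL and 43.5% ± 10.4 in Isl1_hypo, and Hdac9 held 24.3% ± 2.19 and 34.5% ± 8.79 (SD, n = 4). Hdac5 took from 51.5% to 59.7% in CTRL and from 29.0% to 51.4% in Isl1_hypo, so the ranges nearly touched.

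The class I enzymes are the catalytic cores of corepressor complexes. Hdac2 had 91.0, 79.5, 138 and 99.3 CPM in CTRL and 80.8, 89.4, 81.0 and 85.5 CPM in Isl1_hypo, with its spread almost all in CTRL (−0.28 ± 0.15, adjusted p = 0.504, edgeR). Without CTRL replicate 3, its highest library, Hdac2 differed by −0.10 ± 0.12. Hdac1 and Hdac3 differed by 0.10 ± 0.14 and 0.10 ± 0.09. Hdac11, the class IV enzyme, was at −0.44 ± 0.27 but at low counts, from 3.29 to 8.77 CPM over the 8 libraries. It was at −0.26 ± 0.28 without CTRL replicate 1 and at −0.30 ± 0.26 without replicate 3 of Isl1_hypo. Sirt1, an NAD-dependent deacetylase, was at 0.42 ± 0.23 with that library (24.8 CPM, against 11.1 to 14.8 CPM in the other Isl1_hypo libraries) and at 0.13 ± 0.17 without it.

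The 6 enzymes of DNA methylation all had a lower fitted level in Isl1_hypo, with a median log2 fold change of −0.28, which became −0.09 without replicate 3. With the length trend removed 4 of 6 were lower, Dnmt3a standing at 0.06 and Tet1 at 0.10. Tet2, an oxidase of 5-methylcytosine on chromosome 3 (mm9, 133126643 to 133207354), had the smallest p-value of the 47 genes in edgeR and in DESeq2 with all 8 libraries. In limma-voom, and in edgeR without Isl1_hypo replicate 3, Smyd1 had the smallest. The CPM of Tet2 were 25.2, 15.1, 20.3 and 22.6 in CTRL and 13.2, 14.1, 12.3 and 11.9 in Isl1_hypo. The Isl1_hypo libraries were all below the CTRL libraries and close to each other, with CTRL replicate 2 nearest to them. The mean went from 20.8 ± 4.31 to 12.9 ± 0.987 CPM (SD, n = 4), 62.0% of CTRL, with a log2 fold change of −0.69 ± 0.18 (unadjusted p = 0.00219, adjusted p = 0.17, edgeR). DESeq2 put the adjusted p at 0.0242, and over the fits with each library left out in turn the log2 fold change ran from −0.82 to −0.59. Tet2 was also the member with an unadjusted p under 0.05 when the globin level entered the fit as a covariate (−0.79 ± 0.27, unadjusted p = 0.0151, edgeR). In that fit 3.66% of all genes had such a p, and the adjusted p of Tet2 was 0.9998.

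The other Tet genes had fold changes nearer to 0. Tet3 had 99.0, 70.2, 69.4 and 80.6 CPM in CTRL and 78.4, 80.9, 46.0 and 66.4 CPM in Isl1_hypo, with wide overlap (−0.23 ± 0.18, adjusted p = 0.635, edgeR). Without replicate 3, the lowest library, it differed by −0.08 ± 0.13. Tet1 differed by −0.10 ± 0.12, and by −0.05 ± 0.12 without replicate 3. Of the summed level per kilobase of the 3 Tet genes, Tet2 held 16.8% ± 2.10 in CTRL and 12.6% ± 1.71 in Isl1_hypo (SD, n = 4), with ranges of 13.7% to 18.3% and 11.2% to 15.1% that overlapped.

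Dnmt1, the maintenance methylase, lies on chromosome 9 (mm9, 20711650 to 20757317). It had 214, 155, 193 and 169 CPM in CTRL and 152, 153, 128 and 133 CPM in Isl1_hypo. The groups did not overlap, though CTRL replicate 2 was only just above Isl1_hypo replicate 2, and the log2 fold change was −0.37 ± 0.12 (unadjusted p = 0.0106, adjusted p = 0.284, edgeR) and −0.32 ± 0.12 without replicate 3. Dnmt1 is needed by dividing cells, and 12 of 14 cell cycle genes had a higher fitted level in Isl1_hypo, 2 of them at an unadjusted p under 0.05, with sums of 2891 to 3205 CPM in CTRL and 3032 to 3259 CPM in Isl1_hypo. Mki67, 1 of the 2 genes of the list with a lower fitted level, was lower without overlap (−0.53 ± 0.14, unadjusted p = 0.0026, edgeR, and −0.59 without replicate 3). The part of cell division in the level of Dnmt1 was not tested. The de novo methylase Dnmt3a, the more abundant of its pair, differed by −0.09 ± 0.10, and by −0.06 ± 0.09 without replicate 3. Dnmt3b differed by −0.33 ± 0.29 with replicate 3 (5.56 CPM, against 11.5 to 18.1 CPM in the other Isl1_hypo libraries) and by −0.09 ± 0.20 without it. Without Isl1_hypo replicate 1 it differed by −0.61 ± 0.26.

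The enzymes are encoded by long transcripts, and the direction of the difference varied with length. The median transcript length was 5910 bases for the members and 2924 bases for all genes tested, with Kmt2d the longest (19770 bases) and Hdac1 the shortest (1955 bases). Among all genes the share with a lower fitted level in Isl1_hypo was 39.9% below 2000 bases, 48.5% from 2000 to 4000, 55.5% from 4000 to 6000, 60.1% from 6000 to 8000, 66.7% from 8000 to 12000 and 79.1% above. The members were lower in 1 of 3, 4 of 7, 11 of 14, 8 of 9, 9 of 9 and 5 of 5 genes of these ranges. Their medians were 0.10, −0.05, −0.26, −0.23, −0.26 and −0.13, beside 0.05, 0.01, −0.04, −0.07, −0.11 and −0.25 for all genes. Between 4000 and 12000 bases, which holds most members, the enzymes' medians were thus below those of all genes, and above 12000 bases the median was not. Without replicate 3 the medians of the 3 ranges between 4000 and 12000 bases were −0.11, −0.23 and −0.12 for the members, beside −0.02, −0.05 and −0.09 for all genes. Across the 47 genes the log2 fold change and log2 length had a Pearson r of −0.30 and a Spearman rho of −0.28 (−0.12 and −0.17 over the 13769 genes), a description over genes that share the same 8 libraries. The slope was −0.09 per doubling of length for the members and −0.06 for all genes, and −0.06 and −0.04 without replicate 3. GC content of the transcript showed a Pearson r of −0.41 across the members and −0.16 across all genes with a value.

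**Figure D5:**
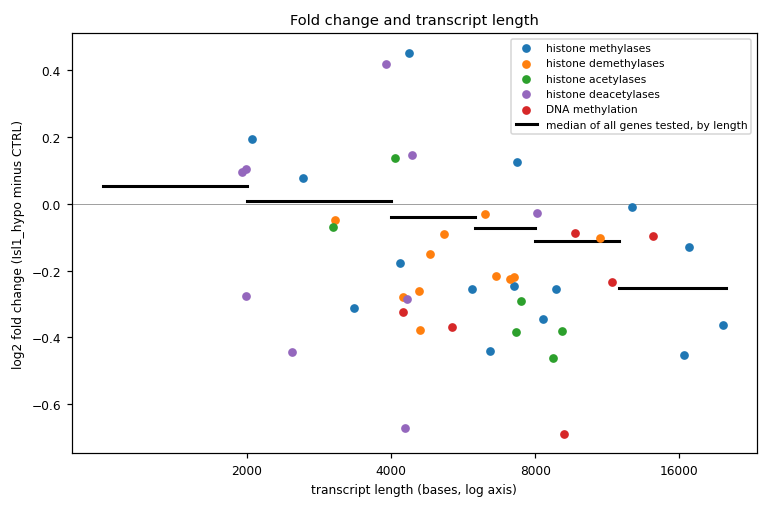
Log2 fold change (Isl1_hypo minus CTRL) of the 47 enzymes against transcript length in bases (log axis), coloured by class, with black bars for the median of all genes tested in each of 6 length ranges, of which the first and last are open-ended. The bars descend from 0.05 to −0.25, and 33 of the 37 enzymes above 4000 bases lie below 0.

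When each library's trend with transcript length was taken out before the test, the member median was −0.11 and 31 of 47 genes were lower. At an unadjusted p under 0.05, 5 members remained past the limit (Setd5, Hdac5, Dnmt1, Tet2 and Suz12), beside 12.2% of all genes. Kmt2a, Kmt2d, Kmt2e and Setd2 did not. Tet2 then stood at −0.54 ± 0.16 and Hdac5 at −0.64 ± 0.20. With the GC trend removed the median was −0.17, 8 members had an unadjusted p under 0.05 (11.4% of all genes), with Kmt2d no longer among them, and Tet2 and Hdac5 stood at −0.73 ± 0.17 and −0.55 ± 0.18. With a covariate for globin the median was −0.12, 31 genes were lower and 1 member, Tet2, had an unadjusted p under 0.05, as did 3.66% of all genes. The globin shares of the groups overlapped only between CTRL replicate 4 and Isl1_hypo replicate 2. Both the fold changes and their SEs moved in this fit, with Hdac5 at −0.41 ± 0.33, Setd5 at −0.12 ± 0.24 and Kmt2a at −0.18 ± 0.22.

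Enzymes of the same kinds that are not among the 47 were not lower as a group. A list of 73 further histone and DNA modifying enzymes held 70 that were tested, 35 lower and 35 higher, with a median of 0.00 and a median length of 3032 bases. At an unadjusted p under 0.05 in edgeR, 1 of the 70 was lower and 0 were higher, beside 6.17% and 5.69% of all genes. The 1 was Dot1l, the H3K79 methylase, at −0.50 ± 0.19 (adjusted p = 0.33, edgeR), with 27.7, 30.9, 26.9 and 30.4 CPM in CTRL and 18.6, 23.98, 13.4 and 26.0 CPM in Isl1_hypo. By class, the medians of the further enzymes were −0.01 for 29 methylases, −0.07 for 12 demethylases, 0.05 for 10 acetylases, 0.02 for 9 deacetylases and −0.02 for 10 enzymes of DNA methylation. Among 29 partner subunits of the complexes, 19 were lower (median −0.09). At an unadjusted p under 0.05 in edgeR, 5 of the 29 were lower, as were 6.17% of all genes. Men1, Hcfc1, Ncoa6 and Jarid2 were among these 5. At the same limit 3 were higher (Dpy30, Rbbp7 and Brpf3), as were 5.69% of all genes. Of the subunits named, Men1, Hcfc1, Ncoa6 and Dpy30 belong to H3K4 methylase complexes, which thus held genes on both sides.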

How the data were processed

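RNA was sequenced on the BGISEQ-500 from single embryos, 4 per genotype. The authors aligned reads with STAR to mm9 and counted exon reads of each RefSeq transcript with HOMER, regardless of strand, so reads of overlapping and antisense genes were added together. The deposited counts were whole numbers and not normalized, and depth was taken from them. RPKM columns made by the authors with edgeR, and the columns of their DESeq2 comparison, were not used. The transcript with the highest mean count was kept per symbol (31507 transcripts, 20701 symbols). The 47 enzymes occupied 89 transcripts, and transcripts of a gene share most of their reads.

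Counts were filtered with filterByExpr, scaled by TMM and tested between genotypes by quasi-likelihood in edgeR 4.0.16 (R 4.3.3), without covariates, with Benjamini-Hochberg adjustment over all 13769 genes tested. The SE is the log2 fold change divided by the square root of F. CPM used TMM-scaled library sizes. Single values were compared by an exact 2-sided permutation test over 70 assignments of libraries. GC content and mm9 coordinates came from GENCODE, and promoter windows from RefSeq GRCm38.p6. The pipeline was tested on simulated data.

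Groups and replicate numbers came from the sample labels, and nothing in the labels pairs the replicates. The count columns, headed CTR or MUT with a number, were matched to the labels by group and number. MUT is not a word of the labels and was taken as Isl1_hypo. The members and gene lists were chosen with earlier results of these data known, so lists carry no test. Values in every library were given for Isl1, for the 3 members of each class with the smallest p, and for members with an unadjusted p under 0.05; Smyd1, Kat2b, Kat6a, Sirt1 and Dnmt3b were added after their values were seen. Alternatives were RLE and upper quartile scaling, DESeq2 1.42.0, limma-voom (limma 3.58.1), no filter, the longest transcript, a replicate block, removal of trends on length or GC (loess, span 0.5), a globin covariate and leaving out each library. Leaving out CTRL replicate 1 with Isl1_hypo replicate 3, the length trend without Isl1_hypo replicate 3, and a test of every transcript were chosen after seeing the data. A gene of the list of partner subunits is not reported here. Further lists held cell type markers, sex genes, globin genes and cell cycle genes.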

Additional observations from a re-analysis of the deposited data

Results flagged for a closer look

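Among 54 groups of 4 values examined, 3 had a library far from the other 3 of its group. The groups covered Isl1, members with the smallest p-values in edgeR, Smyd1, the class medians, the median of all members and the slope on length. Chance gives about 1 in 20 groups, or 2.7. Smyd1 was included after its values were seen, so the 3 cannot be compared with that number. Kat2b, Kat6a, Sirt1 and Dnmt3b were not examined. All 3 were in Isl1_hypo replicate 3. Setd5 was at 57.4 CPM in that library, against 101 to 105 CPM in the other Isl1_hypo libraries. Kdm6b was at 151 CPM, against 99.1 to 103 CPM. Smyd1 was at 2336 CPM, against 1050.5 to 1150.1 CPM. The library thus lay below the others for Setd5 and above them for Kdm6b and Smyd1, and its slope on transcript length (−0.108) and on GC content (−0.296 per 10 percentage points) was the lowest of the 8 libraries. The part of these slopes in the 3 values was not tested.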

How the results depend on the processing

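Of all 13769 genes, 37 passed an adjusted p of 0.05, and 320 of 17052 with DESeq2, 134 with limma-voom, 0 with the replicate block and 0 with the globin covariate. Leaving out each library in turn gave 4 to 48: 8, 5 and 4 without CTRL replicates 1, 2 and 3, and 12, 48 and 11 without Isl1_hypo replicates 2, 3 and 4. Members past this limit numbered 0, and 1 with DESeq2 (Tet2), limma-voom, Isl1_hypo replicate 3 left out, CTRL replicate 1 and Isl1_hypo replicate 3 both left out, or the length trend removed without Isl1_hypo replicate 3 (Smyd1 in these 4), so the range over single libraries left out was 0 to 1. Members past an unadjusted p of 0.05 numbered 9 (11.9% of all genes), against 12 with limma-voom (13.7%), 5 with the length trend removed (12.2%), 1 with the globin covariate (3.66%) and 6 to 11 with a library left out (9.24% to 13.9%). Kmt2a, Hdac5, Dnmt1 and Tet2 stayed under that limit whichever library was left out, while Kmt2d, Kmt2e, Setd2, Setd5 and Suz12 each rose above it in at least 1 case.

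The median of all members was −0.23, against −0.11 with the length trend removed, −0.12 with the globin covariate, −0.12 with CTRL replicate 1 and Isl1_hypo replicate 3 both left out and −0.086 with the length trend removed without Isl1_hypo replicate 3. In the same 4 settings the methylases gave −0.12, −0.12, −0.12 and −0.086, the demethylases −0.10, −0.12, −0.14 and −0.10 (and −0.15 with limma-voom), and the deacetylases 0.068, 0.10, 0.065 and 0.081. DNA methylation gave −0.062 and −0.013 in the last 2. Over all settings other than a single library left out, its median ran from −0.31 to −0.013, and that of the acetylases from −0.35 to −0.15. With each library left out in turn the ranges were −0.25 to −0.17 for all members, −0.29 to −0.17 for methylases, −0.22 to −0.16 for demethylases, −0.39 to −0.20 for acetylases, −0.13 to 0.045 for deacetylases and −0.36 to −0.09 for DNA methylation. Signs turned in 7 members with the length trend removed (Kmt2c, Nsd1, Kdm5a, Kdm5b, Hdac4, Dnmt3a and Tet1, at 0.06 to 0.19), 11 with the globin covariate (Nsd1, Kdm2b, Kdm3b, Kdm4c, Kat2a, Kat6b, Hdac4, Hdac11 and Dnmt3a to between 0.03 and 0.16, Ezh2 to −0.08 and Kat2b to −0.16), 5 with limma-voom, 2 with the GC trend removed, 0 to 5 with a library left out, and 6 and 12 in the last 2 settings. Among them, Kat6b stood at 0.048 with the globin covariate, and Tet3 at 0.035 and 0.056 in the last 2 settings. The cause of these moves was not tested. With the replicate block 10 members had an unadjusted p under 0.05 (11.5% of all genes) and the median was −0.24. Ep300 (−0.50) and Crebbp (−0.31) were then under that limit and Suz12 (0.42) was not. Same-numbered libraries did not deviate together (correlations of −0.02 to 0.02, beside −0.06 to 0.06 for libraries of unlike number). This showed no pairing by number, but a weak link between such libraries would not be seen in it. The slope on transcript length differed by −0.06 between groups (exact permutation p = 0.2), the slope on GC content by −0.13 (p = 0.0857) and log2 depth by −0.56 (p = 0.0571), or 0.2, 0.129 and 0.129 after Benjamini-Hochberg adjustment over the 3 measures. The lowest count of a member in any library was 104.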

Other observations

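Demethylases encoded on the sex chromosomes were not among the 47 genes. The Y-linked Kdm5d, a demethylase of H3K4, was at 20.6 CPM in CTRL replicate 3 and at 16.9, 17.5 and 12.7 CPM in Isl1_hypo replicates 1, 3 and 4, with 0 counts in the other 3 CTRL libraries and 3 counts in Isl1_hypo replicate 2. Uty, the Y-linked relative of Kdm6a, showed the same libraries, at 23.4 CPM and at 31.2, 29.8 and 25.2 CPM. The X-linked Kdm5c had 116, 103, 75.8 and 99.5 CPM in CTRL and 71.9, 107, 52.0 and 63.3 CPM in Isl1_hypo (log2 fold change −0.42 ± 0.21, unadjusted p = 0.0643, adjusted p = 0.455, edgeR). The X-linked Kdm6a, which shares with Kdm6b the removal of H3K27 methylation, had 60.6, 53.1, 27.6 and 42.6 CPM in CTRL and 37.1, 57.1, 30.1 and 33.6 CPM in Isl1_hypo (−0.22 ± 0.25). The libraries with Y-linked counts were thus 1 of 4 in CTRL and 3 of 4 in Isl1_hypo, and for Kdm5c and Kdm6a they held the lowest level of each group. Embryo sex, read from these counts, was therefore uneven between the genotypes. No fit carried sex, and its part in the fold changes, including those of X-linked genes, was not tested.

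Among partner subunits, Hcfc1, a subunit of Set1 and MLL complexes encoded on the X chromosome, had 152, 169, 160.2 and 166 CPM in CTRL and 133, 148, 88.4 and 112 CPM in Isl1_hypo without overlap (−0.43 ± 0.14, adjusted p = 0.296, edgeR). Dpy30, the small core subunit of the H3K4 methylase complexes (697 bases), lay the other way, with 126, 144, 142 and 148 CPM in CTRL and 165, 154, 175 and 171 CPM in Isl1_hypo (0.25 ± 0.09, adjusted p = 0.321).

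Markers of other cells in the dissected tissue were counted over all tested genes of each list. All 4 epithelial markers were higher in Isl1_hypo, each at an unadjusted p under 0.05 (sums of 99.6 to 171 CPM in CTRL and 178 to 381 CPM in Isl1_hypo). Isl1_hypo replicate 1 stood apart in them, with Epcam at 9.83 CPM against 0.128 to 1.87 CPM in the other 7 libraries, and with nearly all counts of Cdh1, Cldn6 and Esrp1, the 3 epithelial markers that did not pass the filter. Of 8 mesenchyme markers 7 were lower, 2 of them at that limit, and all 7 macrophage markers were lower, 0 of them at that limit in edgeR. Of 3 neural crest markers 2 were higher, and of 4 neuronal markers 2 were lower. All 10 globin genes tested were higher, 8 of them at that limit. The part of these cells in the levels of the enzymes was not tested.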
